A study of Strongylocentrotus intermedius with 6 samples.

Results

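Echinoidin is a small secreted lectin that was first isolated from the coelomic fluid of the sea urchin Heliocidaris crassispina. The genes described here are the 24 coding models, of 30559 gene models in the count table, that the authors' annotation names Echinoidin by similarity to that protein. They were chosen by this name, and all 24 carry the same terms, extracellular region and carbohydrate binding, and no noncoding model has the name. The family itself was selected on the measured levels of ZJQ008251 and ZJQ019150 at the 2 times, so differences between the times are given as a description of these libraries. Members called by a test across all genes are counted only beside the share of all genes called, and nothing is read from those counts.

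Echinoidin belongs to the C-type lectins, proteins whose carbohydrate recognition domain binds sugars, in many members with the help of calcium. Sea urchin genomes hold large families of such lectins. In coelomic fluid, lectins are known to bind sugars on foreign cells, and coelomocytes, the immune cells of that fluid, are a known source of them. The same domain occurs in spicule matrix proteins, which are embedded in the calcite skeleton.

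RNA was sequenced from coelomocytes of the sea urchin Strongylocentrotus intermedius. Both groups were kept under LD, which usually stands for alternating light and darkness. They differ in zeitgeber time (ZT, as a rule the time since the lights came on), ZT0 in one and ZT12 in the other, and each has 3 libraries. The labels give no strain, age or hours of light, and do not say whether a library is 1 animal or a pool, so the spread between libraries may be partly technical. Library totals were 20229918 to 24368884 counts. The cytoskeletal actin gene CYIA, a gene listed for coelomocytes, was the most abundant of its list, at 19280 to 32412 CPM (counts scaled to a common library total after correction by TMM, a trimmed mean of ratios between libraries). The polyketide synthase gene ZJQ009082, a marker of pigmented red spherule cells, stood at 931.8 to 1422 CPM. Trypsin-1 (ZJQ009370), a gene listed as a gut marker, stood higher, at 3201 to 4388 CPM. In these bulk samples fewer cells of a type and less RNA per cell cannot be told apart.

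ZJQ019150 was either among the most abundant transcripts of a library or almost uncounted. It had 68766, 156514 and 57570 counts in ZT0 libraries 1, 2 and 3, and 1, 68151 and 0 counts in ZT12 libraries 1, 2 and 3. In CPM the ZT0 libraries stood at 3463, 6669 and 2854, and ZT12 library 2 at 3229.5. The ZT12 libraries therefore lay on both sides of a gap, with library 2 inside the ZT0 range and libraries 1 and 3 near 0. By level the gene ranked number 6 of all genes in ZT0 library 2, and 16, 18 and 32 in ZT12 library 2 and ZT0 libraries 1 and 3. A count of 0 in ZT12 library 3 allows a level of up to 0.137 CPM (3 counts, counting error only), against which ZT12 library 2 was at least 23618-fold higher. Against the single read in ZT12 library 1, the ratio of library 2 was 79139, with an exact Poisson interval of 14204 to 3125808 that covers counting error only.

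A gap reaching so high a level had no match in the table, although other gene models also had counts of 0 in some libraries and high levels in others. Of the 30559 gene models, 318 were under 0.1 CPM in at least 1 library and above 10 CPM in another, 18 reached above 100 CPM and 1, ZJQ019150, above 1000 CPM. Among the 18, the noncoding model lncRna01350 had 707.1, 214.9 and 0 CPM in ZT0 libraries 1, 2 and 3. In ZT12 libraries 1, 2 and 3 it had 649.8, 0 and 0 CPM. Among the 156 other genes with a mean above 1000 CPM, the lowest level in any library was 185.1 CPM. Besides ZJQ019150, 2 gene models were under 0.1 CPM in ZT12 libraries 1 and 3 and above 1 CPM in the other 4 libraries, and neither exceeded 3.79 CPM in any library. The time means were 4329 ± 2049 CPM in ZT0 and 1077 ± 1865 CPM in ZT12 libraries (SD, n = 3). The fitted log2 fold change (ZT12 minus ZT0) was -2.01 with an SE of 2.26. Without ZT12 library 2 it was -17.28, a fitted value that depends on how counts near 0 are handled. A count near 0 says that hardly any reads were assigned to this gene model, and whether the transcript itself was absent was not tested. Levels of this gene were thus not separated by time, and the ZT12 mean came from 1 library.

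**Figure D1:**
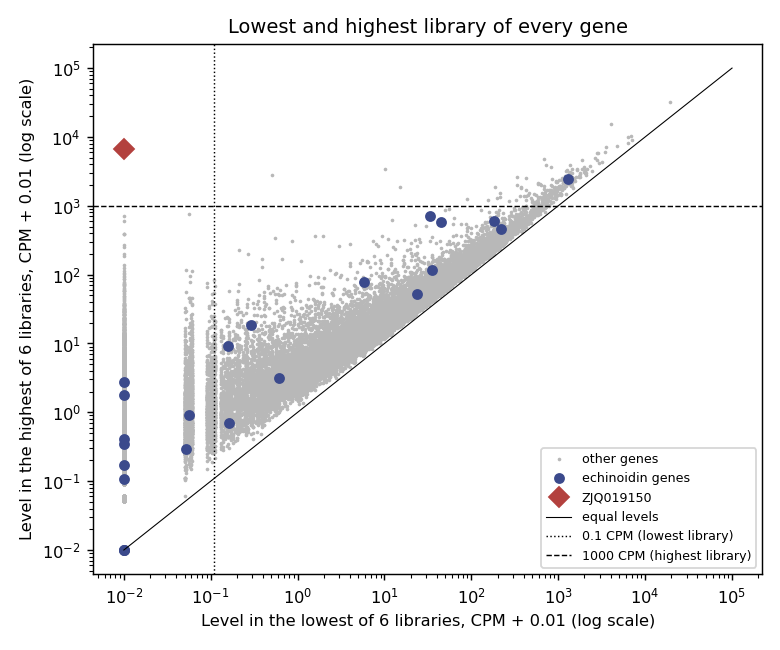
Every gene model by its level in the lowest (x axis) and the highest (y axis) of the 6 libraries, both in CPM + 0.01 on log scales, with ZJQ019150 as a red diamond and the remaining 23 echinoidin genes in blue. ZJQ019150 is the only point left of the 0.1 CPM line and above the 1000 CPM line.

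The summed level of the 24 genes followed this 1 gene. It was 6733, 10031 and 5716 CPM in ZT0 libraries 1, 2 and 3, and 3269.9, 6472 and 3471 CPM in ZT12 libraries 1, 2 and 3. The times overlapped, since ZT12 library 2 lay above ZT0 library 3. Means were 7493 ± 2255 CPM in ZT0 and 4404 ± 1793 CPM in ZT12 libraries (SD, n = 3), a log2 ratio of -0.77. ZJQ019150 alone took 51.4%, 66.5% and 49.9% of the echinoidin counts in ZT0 libraries 1, 2 and 3, and 49.9% in ZT12 library 2. The 95% Wilson intervals of these shares were 51.2 to 51.7%, 66.3 to 66.7%, 49.6 to 50.2% and 49.6 to 50.2%.

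Without ZJQ019150 the remaining 23 genes had a far more even summed level. The sum was 3270.1, 3362 and 2862 CPM in ZT0 libraries 1, 2 and 3, and 3269.9, 3242 and 3471 CPM in ZT12 libraries 1, 2 and 3. The highest library exceeded the lowest 1.21-fold, where the median over tested genes with a count in every library was 2.5-fold, although a sum over genes is not a single gene. Time means were 3165 ± 266 CPM in ZT0 and 3328 ± 125 CPM in ZT12 libraries (SD, n = 3), a log2 ratio of 0.073. How even the sum appeared depended on the unit. On unscaled library totals the highest library was 1.42-fold above the lowest and the log2 ratio of the times was 0.19. On the deposited FPKM (fragments scaled to gene length and library total) these values were 1.56-fold and 0.30, and ZT12 library 3 was the highest, at 3685 FPKM against 2369 to 2883 FPKM in the other libraries. The evenness also depended on ZJQ020677, the next most abundant copy. Without it and ZJQ019150, the sum was 1043, 931 and 1423 CPM in ZT0 libraries 1, 2 and 3 and 1963, 1179 and 1906 CPM in ZT12 libraries 1, 2 and 3, a 2.11-fold range with a log2 ratio of 0.57. ZT12 libraries 1 and 3, in which ZJQ019150 had 1 read and none, were the highest in this sum, in part through different copies. ZJQ011397 stood at 701.9 CPM in library 1 and 280 CPM in library 3, and ZJQ015362 at 100.4 and 589.3 CPM. Whether these levels had to do with ZJQ019150 was not tested.

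**Figure D2:**
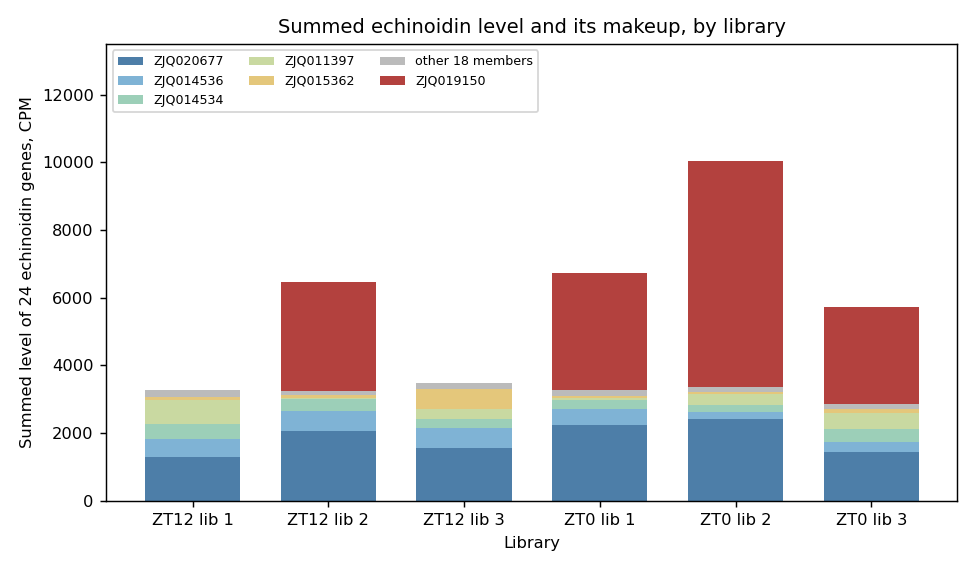
Summed level of the 24 echinoidin genes in CPM (bar height) in each of the 6 libraries, split by gene. The part of the bar without ZJQ019150 ranged from 2862 to 3471 CPM, and ZJQ019150 (red) is visible in 4 of 6 libraries.

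ZJQ020677 was the copy with the steadiest high level. Its levels were 2227, 2430.4 and 1439.6 CPM in ZT0 libraries 1, 2 and 3, and 1307, 2063 and 1565 CPM in ZT12 libraries 1, 2 and 3. The times overlapped, and its highest library exceeded its lowest 1.86-fold, the smallest such ratio among the 12 members that passed the low-count filter. It was the most counted echinoidin gene in ZT12 libraries 1 and 3, with 40% and 45.1% of echinoidin counts (95% Wilson intervals 39.6 to 40.3% and 44.7 to 45.4%). Per length, on the FPKM scale, it ranked first or second of the 24 in all 6 libraries.

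A further 4 genes had means above 100 CPM, and their evenness differed. ZJQ014536 had 478.4, 180.3 and 298.8 CPM in ZT0 libraries 1, 2 and 3, and 514, 595.4 and 571.9 CPM in ZT12 libraries 1, 2 and 3. All ZT12 libraries lay above all ZT0 libraries, with means of 560.4 ± 41.9 and 319.2 ± 150.1 CPM (SD, n = 3) and a fitted log2 fold change of 0.81 (SE 0.33). ZJQ014534 had 271.3, 216.8 and 397.6 CPM at ZT0 and 452.3, 355.9 and 292.3 CPM at ZT12 in libraries 1, 2 and 3, with overlapping times. Both genes stayed within a 3.30-fold range over the 6 libraries.

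The other 2 of these genes varied widely between the libraries of ZT12. ZJQ011397 had 64.8, 324.6 and 455.8 CPM in ZT0 libraries 1, 2 and 3, and 701.9, 33 and 280 CPM in ZT12 libraries 1, 2 and 3. Its highest and lowest libraries were both at ZT12 and differed 21.2-fold. ZJQ015362 had 44.2, 75.9 and 132.3 CPM at ZT0 and 100.4, 83.2 and 589.3 CPM at ZT12, so that only ZT12 library 3 stood above the others. In that library it was the echinoidin gene with the highest level per length, at 1277 FPKM, against 81.5 to 245 FPKM elsewhere. The fitted log2 fold changes were 0.26 (SE 0.97) and 1.61 (SE 0.77), and without ZT12 library 3 that of ZJQ015362 was 0.13.

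ZJQ008032, ZJQ008030 and ZJQ011404 had lower levels. ZJQ008032 stood at 118.3, 36.4 and 76.4 CPM in ZT0 libraries 1, 2 and 3 and at 57.2, 35.5 and 61.8 CPM in ZT12 libraries 1, 2 and 3. ZJQ008030 stood at 23.9, 29.2 and 42.7 CPM at ZT0 and at 52.9, 40.8 and 42.1 CPM at ZT12. For ZJQ011404 the levels were 23.7, 44.1 and 5.8 CPM at ZT0 and 77.2, 27.5 and 59.8 CPM at ZT12. All 3 overlapped between times, with fitted log2 fold changes of -0.58 (SE 0.42), 0.5 (SE 0.26) and 1.16 (SE 0.65). ZT0 library 3 was the lowest library of ZJQ011404 and the highest ZT0 library of ZJQ008030.

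**Figure D3:**
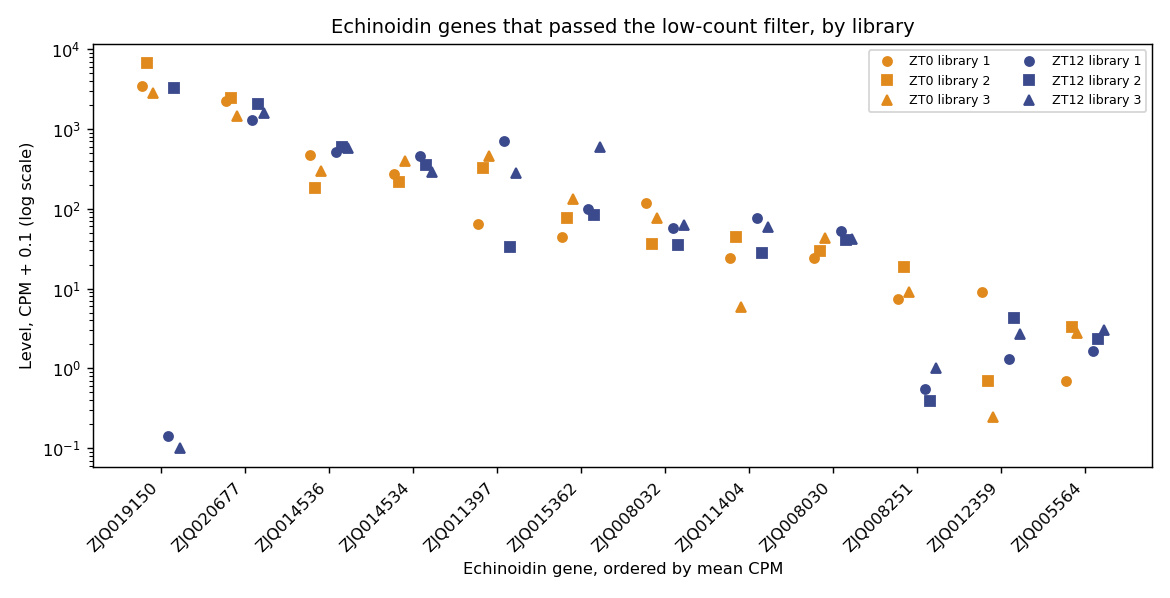
Level of each of the 12 echinoidin genes that passed the low-count filter in every library, in CPM + 0.1 on a log scale, ordered by mean CPM, with ZT0 in orange, ZT12 in blue and 1 symbol per library number. ZJQ019150 falls to the bottom of the axis in ZT12 libraries 1 and 3. ZJQ008251 and ZJQ014536 are the 2 of the 12 genes whose times do not overlap, where this held for 12.2% of all genes.

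ZJQ008251, a weakly expressed copy, was lower at ZT12 than at ZT0 in every library. It had 146, 430 and 181 counts in ZT0 libraries 1, 2 and 3 and 11, 6 and 20 counts in ZT12 libraries 1, 2 and 3. In CPM these were 7.35, 18.3 and 8.97 at ZT0 and 0.449, 0.284 and 0.912 at ZT12. The lowest ZT0 library was thus far above the highest ZT12 library. Means were 11.5 ± 5.92 CPM in ZT0 and 0.548 ± 0.325 CPM in ZT12 libraries (SD, n = 3), and the fitted difference was 21-fold, a log2 fold change of -4.39 (SE 0.62). Leaving out single libraries moved the log2 fold change between -4.94 and -3.88. The gene made up at most 0.183% of the echinoidin counts of a library, so the summed level hardly depended on it.

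The remaining members had few or no counts. ZJQ005564 had 0.604, 3.15 and 2.68 CPM in ZT0 libraries 1, 2 and 3 and 1.55, 2.23 and 2.92 CPM in ZT12 libraries 1, 2 and 3. ZJQ012359 ranged from 0.149 to 9.06 CPM within ZT0 and from 1.22 to 4.17 CPM at ZT12. The 12 members that did not pass the filter included 3 with no count in any library, namely ZJQ012019, ZJQ015261 and ZJQ019145. The highest count in any library was 39 for ZJQ022833, 21 for ZJQ010302, 16 for ZJQ011395 and 8 for ZJQ008031. For ZJQ021957, ZJQ012357, ZJQ014609 and ZJQ012026 it was 7, 6, 4 and 2. ZJQ016018 had 68 counts (2.77 CPM) in ZT12 library 1 and none elsewhere. Counts of 0 allowed up to 0.128 to 0.151 CPM in the 5 other libraries, so ZJQ016018 was at least 18.4-fold higher in that library (3 counts per library, counting error only).

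On the per-length FPKM scale the copies spanned several orders of magnitude. Over the 6 libraries ZJQ020677 had 1234 ± 326 FPKM and ZJQ014534 609 ± 156 FPKM (SD, n = 6 libraries of both times), and the ranges of this pair did not overlap. ZJQ015362, ZJQ011397, ZJQ014536 and ZJQ008032 followed with means of 357, 228, 152 and 111 FPKM, and neighbours in that order overlapped. ZJQ019150 had the highest mean, 1569 ± 1508 FPKM, and ranked first in 4 libraries but below 18 members in the other 2. Models of the 12 members ranged from 498 to 4507 nucleotides, as recovered from the ratio of deposited counts to FPKM. Copies of a family can share reads, and how multiply matching reads were treated is not given in the sources used here, so the split between near-identical copies is uncertain.

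Across the family the times did not differ in 1 direction. Of the 12 members that passed the filter, 7 had a higher and 5 a lower fitted level at ZT12, with a median log2 fold change of 0.15, beside 0.00061 over all 18456 genes tested. With edgeR (quasi-likelihood, Benjamini-Hochberg adjusted p under 0.05) 0 of the 12 were called, where 0.13% of all genes were, 0.0163% higher and 0.114% lower at ZT12. An unadjusted p under 0.05 was reached by 2 of the 12 and by 7.31% of all genes. DESeq2 called 1 member, ZJQ008251, where it called 1.33% of genes, and limma-voom and edgeR with legacy = TRUE called 0. Without ZT12 library 2 edgeR called 1 member, ZJQ019150, where it called 0.125% of genes. The libraries of the times did not overlap for 2 of 12 members, 1 higher and 1 lower at ZT12, where this held for 12.2% of all genes (5.84% higher and 6.33% lower). ZJQ008251 and ZJQ019150 are the 2 genes on whose levels the family was selected, so their calls are no independent evidence.

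Within a time, several copies varied more between libraries than most genes did. The within-time SD of log2(CPM + 1) had a median of 0.62 over the 12 members and of 0.39 over all genes tested. It exceeded the 95th percentile over all genes (1.07) in 5 members, ZJQ019150 (4.77), ZJQ011397 (1.90), ZJQ012359 (1.27), ZJQ015362 (1.23) and ZJQ011404 (1.12). Of 18456 genes 1 had a larger SD than ZJQ019150. The family was selected partly on the levels of ZJQ019150, so its SD is no independent evidence. The steadier copies included ZJQ008030 (0.32), ZJQ020677 (0.37) and ZJQ014534 (0.38), all below the median gene.

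The copies did not rise and fall together over the libraries. Over the 66 pairs of the 12 members, Pearson's r of log2(CPM + 1) across the 6 libraries was above 0 in 31 and below 0 in 35, with a median of -0.06. Extremes were 0.81 for ZJQ008030 with ZJQ014534, and -0.87 for ZJQ008251 with ZJQ014536. These correlations rest on 6 libraries that the pairs share, and are given as a description.

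The genes whose levels most resembled those of ZJQ008251 were also low in every ZT12 library. That follows from how they were picked, since a high correlation with a gene low at ZT12 favours such genes. Among 8699 annotated coding genes with a mean of at least 5 CPM, the 5 highest Pearson's r over the 6 libraries were those of ZJQ010319 (0.985, named snaclec jerdonibitin, after a snake venom C-type lectin), SM30A (ZJQ010417; 0.984, a spicule matrix protein gene), Reg2 (ZJQ010301; 0.983, lithostathine-2, of a family of C-type lectin-like proteins), ZJQ009998 (0.983, C-type lectin lectoxin-Lio1) and SLC26A5 (ZJQ003578; 0.979, prestin, of a family of anion transporters). ZJQ010319 had 88.7, 183.7 and 127.1 CPM in ZT0 libraries 1, 2 and 3 and 7.88, 8.48 and 7.52 CPM in ZT12 libraries 1, 2 and 3. SM30A had 43.8, 86.8 and 65.3 CPM at ZT0 and 3.67, 4.17 and 3.65 CPM at ZT12. In both genes, as in ZJQ008251, ZT0 library 2 was the highest library and ZT0 library 1 the lowest of its time.

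Some markers of skeleton-forming cells were, like ZJQ008251, lower at ZT12. Summed over the 18 listed markers, of which 1 had no count in any library, the level was 415.3 to 841.1 CPM at ZT0 and 94.6 to 184.6 CPM at ZT12. Of the 11 markers tested, 6 fell at ZT12 by edgeR, where 0.114% of all genes did, among them SM50 (ZJQ010321), PM27 (ZJQ010317) and SM30 (ZJQ010416). The other 5 did not pass, and 3 of the 11 had a fitted log2 fold change above 0. DESeq2 called 7 of these markers, where it called 1.33% of all genes, and limma-voom called 0. Their part in the level of ZJQ008251 was not tested. These markers were known to differ in these libraries when the lists were set. Without ZT12 library 1 or 3, 0 of them were called, where edgeR called 0 genes in the whole table.

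**Figure D4:**
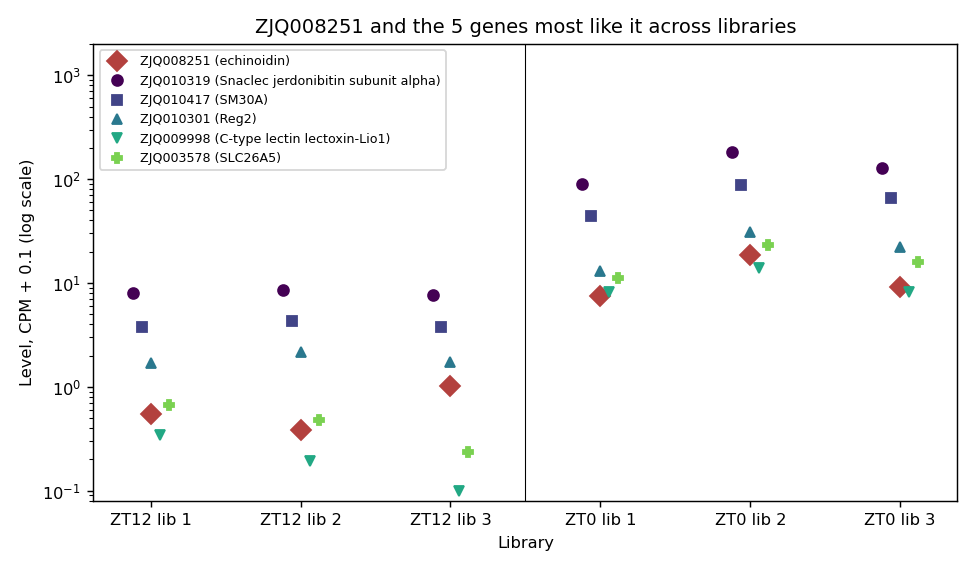
Level of ZJQ008251 and of the 5 genes with the highest correlation to it, in CPM + 0.1 on a log scale, in each of the 6 libraries (1 point per gene and library). All 6 genes are low in the ZT12 libraries and high in the ZT0 libraries, with ZT0 library 2 the highest.

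For ZJQ019150, the 5 most similar genes were CCDC170 (ZJQ000624; r = 0.989), Nfat5 (ZJQ016171; 0.989), MED6 (ZJQ000735; 0.985), rcn1 (ZJQ009186; 0.983) and Rusf1 (ZJQ025076; 0.981). None had a comparable gap. Nfat5, a gene for a transcription factor, had 246.8, 226.8 and 246.2 CPM in ZT0 libraries 1, 2 and 3 and 98.3, 217.6 and 90.7 CPM in ZT12 libraries 1, 2 and 3. For the summed level the 5 were xkr6 (ZJQ011657; r = 0.992), ZJQ008606 (0.985, a mesenchyme-specific cell surface glycoprotein gene), RTase (ZJQ020954; 0.982, transposon-derived), SLC7A5 (ZJQ016484; 0.979) and Iscu (ZJQ023952; 0.965). ZJQ008606, from a family on skeleton-forming mesenchyme, had 108.7, 313.9 and 109 CPM at ZT0 and 23.8, 91 and 22.4 CPM at ZT12.

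Among the other C-type lectin genes, 42 of 117 listed models were tested, and 3 fell at ZT12 by edgeR, beside 0.114% of all genes. The 3 were ZJQ009998, ZJQ010319 and Reg2, which are also among the genes most like ZJQ008251. A fall at ZT12 favours a gene in both choices, so this overlap is no separate evidence. ZJQ009998 fell from a mean of 10.1 ± 3.38 CPM to 0.113 ± 0.123 CPM (SD, n = 3), with an edgeR log2 fold change of -6.35 (SE 0.69) and an adjusted p of 0.00587. Its ZT12 libraries 1, 2 and 3 stood at 0.245, 0.0948 and 0 CPM, so it passed the low-count filter through its ZT0 libraries. Near the floor of 3 counts (0.122 to 0.142 CPM at ZT12), the size of its fold change is uncertain. For ZJQ010319 the means were 133 ± 47.8 and 7.96 ± 0.486 CPM, with an edgeR log2 fold change of -4.06 (SE 0.31, adjusted p 0.00587). For Reg2 they were 22 ± 9.06 and 1.77 ± 0.272 CPM, with -3.64 (SE 0.43, adjusted p 0.0366). DESeq2 called 6 of the list and limma-voom 0, and 14 had an unadjusted p under 0.05 by edgeR. Of all genes DESeq2 called 1.33%, and 7.31% had an unadjusted p under 0.05 by edgeR. The other 39 did not pass by edgeR, and the list's median log2 fold change was -0.11. No member of the list was called without ZT12 library 1 or 3, where edgeR called 0 genes in the whole table. Without ZT12 library 2 edgeR called 0.125% of all genes, and 1 of the list. The most abundant were a P-selectin-named gene, Selp (ZJQ025324), with means of 238 ± 54.9 CPM (ZT0) and 256 ± 86.5 CPM (ZT12), and 2 genes named Cd209d. Selp and both Cd209d genes (ZJQ016021 and ZJQ021979) overlapped between times. At most 1331 CPM in any library, the summed list stayed below the lowest echinoidin sum.

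Other lectins and opsonins gave no call by edgeR. edgeR called 0 of 17 tested lectins of other classes (0 also had an unadjusted p under 0.05), with a median log2 fold change of 0.24. The most abundant was Lgals8 (ZJQ001172), a galectin gene, with means of 765 ± 294 CPM (ZT0) and 933 ± 391 CPM (ZT12), followed by Calr (ZJQ005404), an endoplasmic reticulum chaperone, and mlec-a (ZJQ024687), a malectin. Among 17 complement and opsonin genes edgeR called 0 (5 had an unadjusted p under 0.05) and DESeq2 1, with a median log2 fold change of 0.29. Over all genes edgeR called 0.13%, 7.31% had an unadjusted p under 0.05 by edgeR, and DESeq2 called 1.33%. The most abundant were Cfb (ZJQ009405, complement factor B), with means of 1552 ± 1082 CPM (ZT0) and 2655 ± 1236 CPM (ZT12), CFP (ZJQ004007, properdin), with 2648 ± 1145 and 1386 ± 132 CPM, and Cd109 (ZJQ020232), with 714 ± 152 and 921 ± 257 CPM. Both of the first pair act in the alternative pathway of complement. DESeq2 and limma-voom called 0 of the other lectins, and limma-voom called 0 of the complement genes.

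Of 16 tested spicule matrix and biomineral genes 7 fell at ZT12 by edgeR, beside 0.114% of all genes, and 9 did not pass. Genes of this list were known to differ in these libraries when it was set, so these counts are a description. The median log2 fold change was -2.71, and 6 of the 16 were above 0. DESeq2 called 8 of the list, where it called 1.33% of all genes, and limma-voom called 0. The 7 were SM50, PM27, SM30, SM30A, ZJQ008708, ZJQ008711 and Ca7 (ZJQ025131), with edgeR log2 fold changes from -5.75 (SM30) to -4.04 (ZJQ008711). All but Ca7 are the same 6 genes called among the markers of skeleton-forming cells. The calls of these lists are therefore largely 1 result. SM30 stood at 0.0816, 0.426 and 0.0912 CPM in ZT12 libraries 1, 2 and 3, so it passed the low-count filter through its ZT0 libraries. At levels so near the floor of 3 counts, the size of its fold change is uncertain. Ca2 (ZJQ017234), a carbonic anhydrase gene and the most abundant of the list, had means of 952 ± 135 CPM (ZT0) and 907 ± 184 CPM (ZT12), with a fitted log2 fold change of -0.07. Without ZT12 library 1 or 3, 0 of the 16 were called, where edgeR called 0 genes in the whole table. Without any other single library 5 or 6 were called, where edgeR called 15 to 24 in the whole table.

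Markers of other cells that coelomic fluid could hold gave no call by edgeR, which called 0.13% of all genes. With so small a share, no call in a list says little about these cells. The lists were coelomocyte abundant genes (0 of 9 called, 1 at an unadjusted p under 0.05), phagocyte markers (0 of 26, 4), red spherule cell markers (0 of 28, 6), ciliated cell markers (0 of 38, 0), gut markers (0 of 31, 13), muscle markers (0 of 5, 1) and gonad markers (0 of 3, 0). DESeq2 called 1 red spherule cell marker and 4 gut markers and none of the other 5 lists, where it called 1.33% of all genes, and limma-voom called 0 in all of them. The 13 of 31 gut markers at an unadjusted p under 0.05 stand beside 7.31% of all genes. The gut markers had a median log2 fold change of 1.56, with 26 of the 31 above 0 and 5 below. Their summed level overlapped between times, at 3603 to 4797 CPM at ZT0 and 3672 to 3995 CPM at ZT12. Most of that sum was 1 gene, Trypsin-1 (ZJQ009370), at 3268 to 4388 CPM at ZT0 and 3201 to 3437 CPM at ZT12. Its fitted log2 fold change was -0.26 (SE 0.21), so the sum says little about the other gut markers.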

How the data were processed

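The labels describe coelomocyte RNA extracted with TRIzol and sequenced by OE Biotech from kit-made libraries. The tools fastp, HISAT2 and HTSeq are listed per the submitters' processing notes. For versions, genome build, annotation and strand setting nothing is given in the sources used here. The authors deposited whole-number counts per gene model, not normalized, and FPKM values per library. In 97881 values with at least 20 counts, the deposited FPKM equalled the counts divided by library total and 1 length per gene, within 0.1%.

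The test was edgeR 4.0.16 (R 4.3.3) on the counts: filterByExpr by group (minimum count 10, minimum total 15), TMM, glmQLFit with legacy = FALSE and glmQLFTest, ZT12 minus ZT0, with Benjamini-Hochberg adjustment over 18456 genes and a false discovery rate of 0.05. DESeq2 1.42.0 and limma 3.58.1 (voom) were alternatives. Each SE was taken as |log2 fold change| / sqrt(F). With 3 libraries against 3, the smallest p of an exact permutation test is 0.1. Intervals and floors (3 counts) cover counting error only. Fits were tested on simulated counts.

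Members and lists were chosen with earlier results of these data known. Lists are patterns on the deposited names, and unrelated names were removed on names alone after the names were seen. Genes named are every echinoidin gene, the 5 genes most correlated with ZJQ008251, with ZJQ019150 (also the most abundant member) and with the summed level, and of the 4 companion lists the 3 most abundant members and those called. Marker list genes beyond these were named for the tissue check.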

Additional observations from a re-analysis of the deposited data

How the results depend on the processing

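The number of genes called across the whole table depended on the tool and on single libraries. edgeR called 24, DESeq2 264, limma-voom 0 (1078 at an unadjusted p under 0.05) and edgeR with legacy = TRUE 10, and leaving out 1 library gave 0 to 24. It called 0 without ZT12 library 1 (1398 at an unadjusted p under 0.05) and 0 without ZT12 library 3 (1502), and without ZT0 library 3 edgeR called 15. Among echinoidin genes DESeq2 called 1 (ZJQ008251), and leaving out 1 library gave 0 to 1, the 1 being ZJQ019150 without ZT12 library 2. The log2 ratio of the summed echinoidin level was -0.77, became 0.073 without ZJQ019150, and ranged from -1.15 to -0.50 without single libraries. Calls ranged from 0 to 3 among other C-type lectin genes and from 0 to 6 among spicule matrix and biomineral genes without single libraries. The cause of these changes was not tested. Among the 12 tested members, 114 of 120 fold changes under the alternatives run for single genes moved by less than the spread between libraries, and 8 turned sign, in ZJQ005564, ZJQ011397 and ZJQ012359.

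With the replicate number as a block, edgeR called 13 genes and no echinoidin gene, and the log2 fold change of ZJQ019150 was -10.23. The labels do not say that a number marks a shared animal or batch. Same-numbered libraries did not deviate together, with correlations of -0.05, 0.02 and -0.001 across genes, and no library correlated best with its own number. With no known pair to compare with, these correlations cannot show whether same-numbered libraries share an animal or a batch.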

Other observations

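A second C-type lectin gene, chosen after its values were seen, also had a library at 0. ZJQ016019, named a mannose-binding isoform, had 59.8, 76.1 and 94.3 CPM in ZT12 libraries 1, 2 and 3, and 112.9, 9.46 and 0 CPM in ZT0 libraries 1, 2 and 3. It is 1 of the 18 gene models, 13 coding and 5 noncoding, that were under 0.1 CPM in a library and above 100 CPM in another. The library at 0 was ZT0 library 3, in which ZJQ019150 stood at 2854 CPM, so the near-0 counts of the 2 lectin gene models fell in different libraries. Whether the transcripts themselves were absent was not tested.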
